A study of Mus musculus with 6 samples.

Results

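Plvap (fenestral diaphragms), Ehd2, Cav2, Cavin1, Cavin2 and Cavin3 (caveolae), Ehd4 (endocytic membranes) and Emcn (cell surface) encode proteins found at cell membranes. They were chosen by gene symbol with earlier results on these data known, among the measured values the higher UMI level of Plvap in artery-like cells at anagen, and are 8 of the 32285 genes counted. The cells were tdTomato+ cells sorted from mouse dorsal skin and profiled by 10x Chromium 3′ single-cell RNA-seq, with 1 library per mouse and 2 libraries in each of 3 groups. WT telogen (resting hair cycle, postnatal day 20) and WT anagen (growing hair cycle, postnatal day 32) libraries came from Cdh5-CreERT2; tdTomato; Krt14-H2BGFP mice on C57BL/6;CD1. Alk1 KO libraries came from Alk1 flox/flox; tdTomato; Cdh5-CreERT2 mice on C57BL/6 in telogen at postnatal day 25. All 6 mice received tamoxifen at 200 µg per g on postnatal day 17, so every cell type in which the Cdh5 driver was active could carry the label and, in the Alk1 KO mice, the deletion. The Alk1 KO group differed from WT telogen in age, time after tamoxifen, strain and the Krt14-H2BGFP allele as well as in Alk1. The study also describes the Alk1 KO cells as coming from a previous dataset of its own. These differences cannot be told apart here. The Alk1 KO libraries carry a wild type genotype entry beside titles that name them Alk1 KO, and the titles were followed.

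PLVAP is the protein of the thin diaphragms that span endothelial fenestrae, caveolae and transendothelial channels. Caveolae are flask-shaped pits of the plasma membrane, built by caveolins and coated by cavins, with Cavin1 needed for the coat, Cavin2 and Cavin3 as further coat subunits, and the ATPase EHD2 placed at the neck. EHD4 is a related ATPase of endocytic membranes, and endomucin, encoded by Emcn, is a sialomucin of the surface of venous and capillary endothelium. Alk1, encoded by Acvrl1, is a TGF-β family receptor of endothelial cells that passes its signal to SMAD1 and SMAD5.

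Between 1713 and 5106 cells per library were kept, with median depths of 4371 to 6935 UMIs (unique molecular identifiers, each counting 1 captured mRNA molecule). The libraries held 10615358 to 43317677 UMIs in all, and pairs of libraries shared 2 to 13 cell barcodes. Cells were clustered without the 8 genes, and clusters were named from marker genes. This gave artery-like and vein-like cells, 2 capillary-like populations marked by Kdr (Cap-Kdr-like) and Rgcc (Cap-Rgcc-like), collecting and capillary lymphatic-like cells (Lymph-Col-like and Lymph-Cap-like), Cdh5+/Krt19+ perineurial-like cells, pericyte-like cells and several contaminating types. Levels are in CPM, the UMIs of a gene after the UMIs of all genes in that population and library are scaled to the usual common total. Acvrl1 itself was at 216 and 186 CPM in blood endothelial-like cells of the telogen libraries, 160 and 175 CPM in anagen and 168 and 156 CPM in the libraries labelled Alk1 KO. In edgeR's quasi-likelihood test it fell in Alk1 KO in Cap-Kdr-like cells (log2 fold change −1.13, SE 0.21, adjusted p 0.0020), Cap-Rgcc-like cells (−0.67) and pericyte-like cells (−1.87), and it passed the test in none of the other 5 populations. The exons that the floxed allele removes are not given in the sources used here, so a 3′ count of Acvrl1 need not report the deletion.

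All 8 genes are protein coding and are given here on GRCm38 (mm10) with GENCODE vM21. Plvap lies on chromosome 8 from 71497765 to 71511752 (minus strand), Emcn on chromosome 3 from 137341067 to 137432185 (plus) and Ehd4 on chromosome 2 from 120089175 to 120154606 (minus). Ehd2 lies on chromosome 7 from 15946958 to 15967567 (minus), Cavin3 on chromosome 7 from 105480083 to 105482300 (minus) and Cavin1 on chromosome 11 from 100956733 to 100970887 (minus). Cavin2 lies on chromosome 1 from 51289126 to 51302960 (plus) and Cav2 on chromosome 6 from 17281185 to 17289115 (plus). Plvap overlaps Gtpbp3 and Cavin3 overlaps Gm45667, each on the other strand, and Cav2 and Cavin2 each overlap an antisense gene.

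Bases before the start of 3 members are shown because these genes behaved most differently in Alk1 KO: Cavin2 fell in both capillary-like populations, Emcn rose in lymphatic-like cells and Cav2 passed the test nowhere. They are from RefSeq (GRCm38.p6), plus strand, 5′ to 3′, at chr1:51288876-51289125 for Cavin2, chr3:137340828-137341066 for Emcn and chr6:17280935-17281184 for Cav2.
Cavin2: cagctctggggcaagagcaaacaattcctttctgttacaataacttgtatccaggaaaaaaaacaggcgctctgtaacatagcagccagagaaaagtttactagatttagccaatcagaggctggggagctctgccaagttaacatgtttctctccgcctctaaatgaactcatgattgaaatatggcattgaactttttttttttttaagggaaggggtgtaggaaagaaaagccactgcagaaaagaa
Emcn: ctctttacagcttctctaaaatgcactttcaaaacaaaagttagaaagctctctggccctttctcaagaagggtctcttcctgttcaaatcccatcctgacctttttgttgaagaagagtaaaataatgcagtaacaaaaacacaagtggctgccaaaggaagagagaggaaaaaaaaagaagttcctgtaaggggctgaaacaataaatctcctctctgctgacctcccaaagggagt
Cav2: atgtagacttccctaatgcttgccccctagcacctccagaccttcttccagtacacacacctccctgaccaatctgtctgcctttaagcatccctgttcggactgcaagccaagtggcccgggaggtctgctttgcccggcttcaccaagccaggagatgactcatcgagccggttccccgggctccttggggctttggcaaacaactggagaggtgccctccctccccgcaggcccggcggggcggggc
Capitals would mark a match to 1 of 5 motifs searched on both strands, and these windows hold none. The motifs were CCGGAAG (ETS), CCACACCC (KLF), GGCGCC (a GC-rich SMAD1/5 site), GTCTAGAC (a SMAD palindrome) and TATAAA (the TATA box), which occur in 6.91%, 3.20%, 9.59%, 0.167% and 12.4% of the 250-base windows before 32851 starts. Of the 6 members with an entry, the windows before the RefSeq starts of Cavin1 and Ehd2 hold GGCGCC, in both at bases that lie within the gene as GENCODE bounds it above, and the other 4 hold none of the 5. The windows of Cavin2 and Emcn are AT-rich, with 40.4% and 40.6% G and C against a median of 52.4% over all starts, and that of Cav2 has 62%.

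The levels across populations below are a description without a test, since the populations come from the same cells. In the WT libraries Plvap was highest in vein-like cells at 3138 ± 483 CPM (SD, n = 4), followed by Cap-Kdr-like cells at 2556 ± 696 CPM and Cap-Rgcc-like cells at 2098 ± 698 CPM. The ranges of these 3 overlapped, but the order was the same in each of the 4 WT libraries. A gap of 3.71-fold separated Cap-Rgcc-like cells from pericyte-like cells (566 ± 362 CPM), the next in order, and Lymph-Cap-like cells followed at 552 ± 149 CPM. This order and those of the other genes leave out clusters that met no name and the proliferating cells. Of these, an unnamed cluster among the endothelial-like cells, led by Lrat, Apcdd1 and Tacr1 (658 WT cells), held Plvap at 2526 ± 759 CPM and the proliferating cells (369 WT cells) at 1116 ± 854 CPM, both above pericyte-like cells. In pericyte-like cells 8 general endothelial markers summed to 3140 and 2486 CPM in WT telogen and 3230 and 1387 CPM in WT anagen. Those without an endothelial marker UMI (3 to 10 cells per WT library) held 0 or 1 Plvap UMI per library. The part of these markers in the pericyte-like level was not tested. Artery-like cells were at 386 ± 222 CPM, Lymph-Col-like cells at 169 ± 67.3 CPM and perineurial-like cells at 67.0 ± 49.6 CPM. Thinned shares were taken over cells with at least 1500 UMIs, each thinned to 1500 UMIs, and leave out the other cells. After this thinning, between 96.1% and 99.4% of vein-like cells of the 4 WT libraries held a Plvap UMI, against 0.56% to 7.32% of immune-like cells, which should lack the gene. Without thinning, Plvap was found in 99.7% to 100% of the vein-like cells and 3.3% to 15.4% of the immune-like cells, at median depths of 7504 to 9396 and 9303 to 13444 UMIs.

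**Figure D1:**
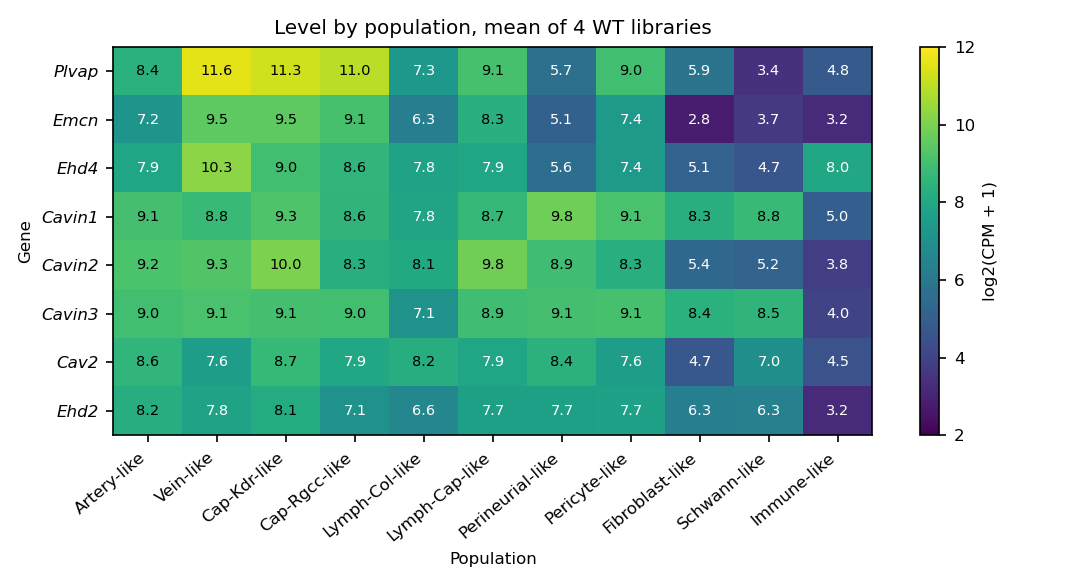
Mean level of each of the 8 genes in 11 populations as log2(CPM + 1) over the 4 WT libraries, with the value printed in each cell. Plvap, Emcn and Ehd4 are highest in vein-like and capillary-like cells, while Cavin1 peaks in perineurial-like cells and Cavin3 varies little outside Lymph-Col-like and immune-like cells.

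Emcn stood at 742 ± 42.3 CPM in Cap-Kdr-like cells and 738 ± 90.8 CPM in vein-like cells, which did not differ beyond their spread. Cap-Rgcc-like cells came next at 544 ± 15.4 CPM and Lymph-Cap-like cells at 322 ± 30.5 CPM, each in a range of its own. Pericyte-like (172 ± 57.4 CPM) and artery-like cells (148 ± 41.1 CPM) overlapped. Pericyte-like cells without an endothelial marker UMI held 0 Emcn UMIs in each WT library. The part of endothelial markers in the pericyte-like Emcn level was not tested. Ehd4 was the most venous of the 8: vein-like cells held 1228 ± 128 CPM, 2.43 times the level of Cap-Kdr-like cells (505 ± 94.8 CPM), with no overlap. Immune-like cells held Ehd4 at 260 ± 81.1 CPM, and within them the macrophage-like cluster led by Ccl8, Cd209f and Folr2 had 579 and 691 CPM in telogen and 448 and 451 CPM in anagen.

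The caveolar genes followed another order. Cavin1 was highest in perineurial-like cells at 885 ± 74.0 CPM, above the range of every other population, with Cap-Kdr-like cells next at 615 ± 79.1 CPM. Cavin2 was highest in Cap-Kdr-like cells (1062 ± 231 CPM) and Lymph-Cap-like cells (912 ± 129 CPM), overlapping in range but in this order in all 4 WT libraries, and lowest among endothelial-like cells in Lymph-Col-like cells (271 ± 68.5 CPM). Cavin3 lay between 493 and 574 CPM in 7 populations and dropped to 141 ± 34.4 CPM in Lymph-Col-like cells. Ehd2 was highest in artery-like cells (305 ± 34.4 CPM), overlapping Cap-Kdr-like cells (282 ± 38.9 CPM). Cav2, a caveolin that forms complexes in the caveolar membrane, was at 413 ± 56.4 CPM in Cap-Kdr-like and 388 ± 69.3 CPM in artery-like cells, and at 26.3 ± 10.3 CPM in fibroblast-like and 22.5 ± 3.96 CPM in immune-like cells.

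The blood endothelial-like level minus the lymphatic one, on a log2 scale within each WT library, was largest for Plvap at 2.76 ± 0.23 (SD, n = 4). Emcn followed at 1.71 ± 0.20, Ehd4 at 1.40 ± 0.17 and Cavin3 at 1.10 ± 0.23. It was smaller for Ehd2 (0.87 ± 0.27), Cavin1 (0.78 ± 0.23) and Cavin2 (0.40 ± 0.30), and for Cav2 (0.17 ± 0.31) it was within its own spread of 0. Over the means of the 11 populations, Plvap and Emcn had a Pearson r of 0.95 and Plvap and Ehd4 of 0.84, while Cavin1, Cavin3 and Ehd2 had 0.93 to 0.96 with one another and Ehd4 and Cavin1 −0.11. These are correlations over 11 points that share libraries, given without a p. Among 5783 other genes compared in this way, the patterns most like Plvap were those of Unc45b (r 0.98), Tyms (0.97), Ifi44 (0.97), Ebf3 (0.97) and Grrp1 (0.96). The nearest to Emcn were Ifi44 (0.96), Grrp1 (0.96), Gimap4 (0.95), Myct1 (0.95) and Crim1 (0.95). Timm17a, Pnkd, Taf11 and Smim10l1 (0.94 to 0.95) lay near the mean of Cavin1, Cavin2, Cavin3, Cav2 and Ehd2.

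The first comparison asked how the 8 genes differed between telogen and anagen. Anagen mice were also older and further from tamoxifen than telogen mice, which cannot be told apart from stage here. UMIs were summed per library and population and tested with edgeR's quasi-likelihood test, with adjustment over all genes tested, and genes past a fold of 1.3 with an adjusted p below 0.05 were calls. Plvap was called higher at anagen in Lymph-Col-like and perineurial-like cells. Its higher level in artery-like cells was known beforehand and is described without a test. No other member was called in any of the 8 populations. Of the 64 tests on members 3 were calls (4.69%; 0.513% of all gene tests), but 1 of the 3 is that artery-like value, so nothing is read from this share.

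In artery-like cells Plvap was at 236 and 169 CPM in telogen and at 495 and 645 CPM in anagen. The log2 fold change was 1.59 (SE 0.19). Among all genes 0.592% were called in these cells. The gain lay in each of the 3 artery-like clusters: the cluster led by Alpl, Gja5 and Tmem100 went from 304 and 169 to 618 and 590 CPM, that led by Gkn3, Mgp and Cytl1 from 180 and 217 to 326 and 477 CPM, and that led by Fez1, Pi16 and Plscr1 from 251 and 104 to 549 and 846 CPM. The 9 Cap-Kdr markers summed to 2105 and 1793 CPM in artery-like cells of telogen and 4239 and 2187 CPM of anagen, with 0 of them at 0, and their part in this difference was not tested. Thinned to 1500 UMIs, 25.2% and 21.9% of artery-like cells held a Plvap UMI in telogen and 38.0% and 46.4% in anagen.

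In Lymph-Col-like cells Plvap was at 117 and 111 CPM in telogen and 194 and 252 CPM in anagen (log2 fold change 1.09, SE 0.17, edgeR adjusted p 0.019, 1.27% of all genes called). In perineurial-like cells it was at 31.6 and 17.5 CPM in telogen and 103 and 116 CPM in anagen (2.26, SE 0.25, edgeR adjusted p 0.013, 0.731% of all genes called). Endothelial markers were also higher at anagen in these perineurial-like cells: the sum of 8 general endothelial markers was 399 and 470 CPM in telogen and 605 and 660 CPM in anagen, that of 8 vein markers 161 and 224 against 334 and 378 CPM, and that of the 9 Cap-Kdr markers 95.4 and 120 against 240 and 194 CPM, with 0 of them at 0. In Lymph-Col-like cells the 8 vein markers summed to 389 and 566 CPM in telogen and 724 and 1026 CPM in anagen. Of these, 1 of the 8 was at 0 in each telogen library. The 9 Cap-Kdr markers were also higher at anagen (292 and 290 against 350 and 435 CPM). The 9 artery markers were lower (594 and 679 against 507 and 525 CPM), and the 8 Cap-Rgcc markers overlapped (770 and 947 against 802 and 587 CPM). The part of these markers in the results was not tested. Plvap also moved in immune-like cells, from 10.1 and 5.97 CPM in telogen to 74.3 and 108 CPM in anagen. With the immune-like level of the same library taken off, in an alternative chosen after seeing the data, the anagen to telogen ratio of the means was 2.46 in artery-like cells (2.81 before), 1.24 in Lymph-Col-like cells (1.95 before) and 1.12 in perineurial-like cells (4.46 before). Perineurial-like cells were then at 21.6 and 11.5 CPM in telogen and 29.0 and 7.99 CPM in anagen, which overlap. A fit that leaves out a library has 1 library in that group, which is assumed to vary like the libraries of the other group. Without either telogen library the Lymph-Col-like call was lost (log2 fold change 1.13 and 1.05, edgeR adjusted p 0.14 and 0.22 without replicates 1 and 2). The perineurial-like call was lost with cells under 5% mitochondrial UMIs (2.70, edgeR adjusted p 0.081) and with likely doublets removed (2.15, edgeR adjusted p 0.084).

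**Figure D2:**
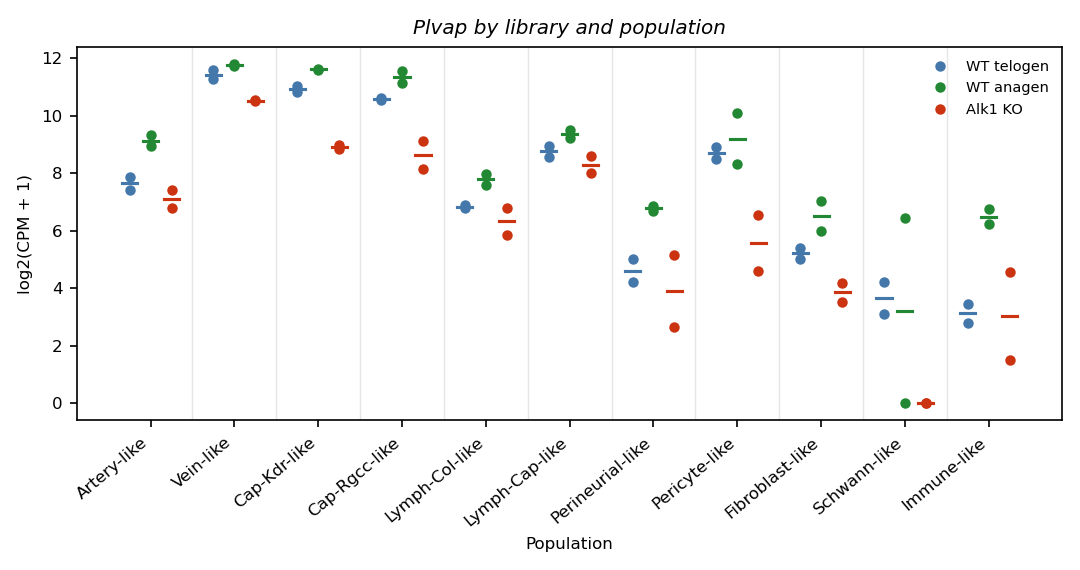
Plvap level as log2(CPM + 1) in each library (points) with the mean of the 2 libraries of a group (bars), for WT telogen, WT anagen and Alk1 KO in 11 populations. The anagen points lie above both telogen points in every population but pericyte-like and Schwann-like cells, the immune-like cells at the right included. The Alk1 KO points lie far below telogen in the capillary-like populations.

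In vein-like, both capillary-like and Lymph-Cap-like cells the stage difference of Plvap did not pass the test. Cap-Kdr-like cells were at 2119 and 1808 CPM in telogen and 3166 and 3129 CPM in anagen (log2 fold change 0.71, SE 0.13, edgeR adjusted p 0.19), and Cap-Rgcc-like cells at 1588 and 1514 CPM and 2282 and 3009 CPM (0.87, SE 0.17, adjusted p 0.089). Vein-like cells were at 3091 and 2481 CPM and at 3392 and 3586 CPM (0.45, SE 0.14, edgeR adjusted p 0.22), and Lymph-Cap-like cells at 380 and 500 CPM and at 599 and 730 CPM (0.67, SE 0.16, edgeR adjusted p 0.090). The groups did not overlap in these 4 populations, which share their libraries. How many of all genes had groups that did not overlap is not given here, so nothing is read from this. Calls over all genes were 0.0119% (Cap-Kdr-like), 0.336% (Cap-Rgcc-like), 0.44% (vein-like) and 0.529% (Lymph-Cap-like). With the immune-like level taken off, the ratio of the means was 1.56 in Cap-Kdr-like, 1.65 in Cap-Rgcc-like, 1.33 in Lymph-Cap-like and 1.22 in vein-like cells, so that the first 3 lay above the 1.24 of Lymph-Col-like and the 1.12 of perineurial-like cells, which had been called. Without the first anagen library Plvap was called in Cap-Kdr-like (0.67, edgeR adjusted p 0.00038), Cap-Rgcc-like (1.08, edgeR adjusted p 0.016) and Lymph-Cap-like cells (0.78, edgeR adjusted p 0.0028). Without the second it was called in Cap-Kdr-like (0.76, edgeR adjusted p 8.3e-06) and Cap-Rgcc-like cells (0.68, edgeR adjusted p 0.034), and without the first telogen library in Cap-Kdr-like cells (0.84, edgeR adjusted p 0.046). In pericyte-like cells, where 0.0463% of genes were called, Plvap was at 484 and 363 CPM in telogen and 1099 and 318 CPM in anagen, which overlap.

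Across the 8 populations the fitted stage difference of Plvap was above 0 in all 8, as were those of Cav2 (0.05 to 0.51) and Cavin3 (0.03 to 0.74), while that of Cavin2 was below 0 in all 8 (−0.62 to −0.10). Without TMM scaling Cavin3 in artery-like cells had −0.05, the 1 sign among these that changed. The populations come from the same libraries, so their signs are not independent. The share of all genes with the same sign in all 8 is not given here. No difference of Cav2, Cavin3 or Cavin2 passed the test. Cavin2 in vein-like cells was at 679 and 943 CPM in telogen and 490 and 478 CPM in anagen (edgeR adjusted p 0.15), and Cavin3 in Cap-Rgcc-like cells at 343 and 466 CPM and 614 and 645 CPM (edgeR adjusted p 0.12). Emcn in artery-like cells was at 124 and 104 CPM in telogen and 190 and 176 CPM in anagen (0.79, SE 0.15, edgeR adjusted p 0.057). This last difference lay near the threshold and was called in 9 of 16 alternatives, among them those without the first telogen library (0.93, edgeR adjusted p 0.028), the first anagen library (0.72, edgeR adjusted p 0.014) and the second anagen library (0.86, edgeR adjusted p 0.0039). Emcn in perineurial-like cells was at 13.9 and 29.4 CPM and at 65.4 and 45.2 CPM (1.38, SE 0.33, edgeR adjusted p 0.12), beside immune-like levels of 2.79 and 2.59 CPM in telogen and 18.0 and 30.1 CPM in anagen. Unadjusted p-values under 0.05 were found for 2 members in vein-like, 2 in Cap-Kdr-like, 4 in Cap-Rgcc-like, 3 in Lymph-Cap-like and 0 in pericyte-like cells, the populations without a call. Among all genes they were found for 1235 of 9309, 741 of 8430, 1632 of 9239, 1092 of 7748 and 527 of 8647 in the same order.

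Other single libraries decided whether a stage difference was called. Without the first anagen library, edgeR called Emcn (0.75) and Cavin3 (0.77) in Lymph-Col-like cells, Cavin2 in Cap-Kdr-like (−0.61) and pericyte-like cells (−1.69), and Ehd2 in perineurial-like cells (−0.71). Without the second it called Ehd4 in artery-like (−0.75) and Lymph-Cap-like cells (−0.74), Cav2 in artery-like (0.61) and Cap-Rgcc-like cells (0.82), Cavin3 in Lymph-Col-like cells (0.58) and Emcn in perineurial-like cells (1.66). The last was also a call without the second telogen library (2.06).

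The stage difference was also tested against itself between cell types, with the library as a block. No member was called for blood endothelial-like against lymphatic-like cells, where 0.025% of all genes were called, or for artery-like against the 2 capillary-like populations summed, where 0.027% were. For Emcn the artery-like difference exceeded the capillary-like one by 0.70 (SE 0.18, edgeR adjusted p 0.46). For Plvap it did so by 0.76 (SE 0.17), given without a test because its artery-like difference was known beforehand. With Plvap left out, unadjusted edgeR p-values under 0.05 were found here for Emcn, Cavin2, Ehd4 and Cavin3, and for 591 of 11130 genes. In blood against lymphatic they were found for 0 members and 908 of 12009 genes. Without the first or the second anagen library Emcn was called (0.61 and 0.76, edgeR adjusted p 0.036 and 0.012). Cavin2 (0.81) and Cavin3 (−0.56) were also calls without the first, and Ehd4 (−1.04) without the second.

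The second comparison set Alk1 KO against WT telogen. The 2 telogen libraries are the same as in the stage comparison, so the 2 sets of differences are not independent. In Alk1 KO the diaphragm gene Plvap and the cavin Cavin2 fell in both capillary-like populations and the ATPase Ehd4 fell in Cap-Kdr-like cells, while Cavin2 rose in perineurial-like cells, Ehd4 rose in artery-like cells and Emcn rose in both lymphatic-like populations. Of 64 tests on members, 6 were calls upward and 20 downward (40.6%), against 19.1% of all gene tests in the same fits. Cav2 was the 1 member called in none of the 8 populations with all libraries, with log2 fold changes of −0.67 to 0.49.

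**Figure D3:**
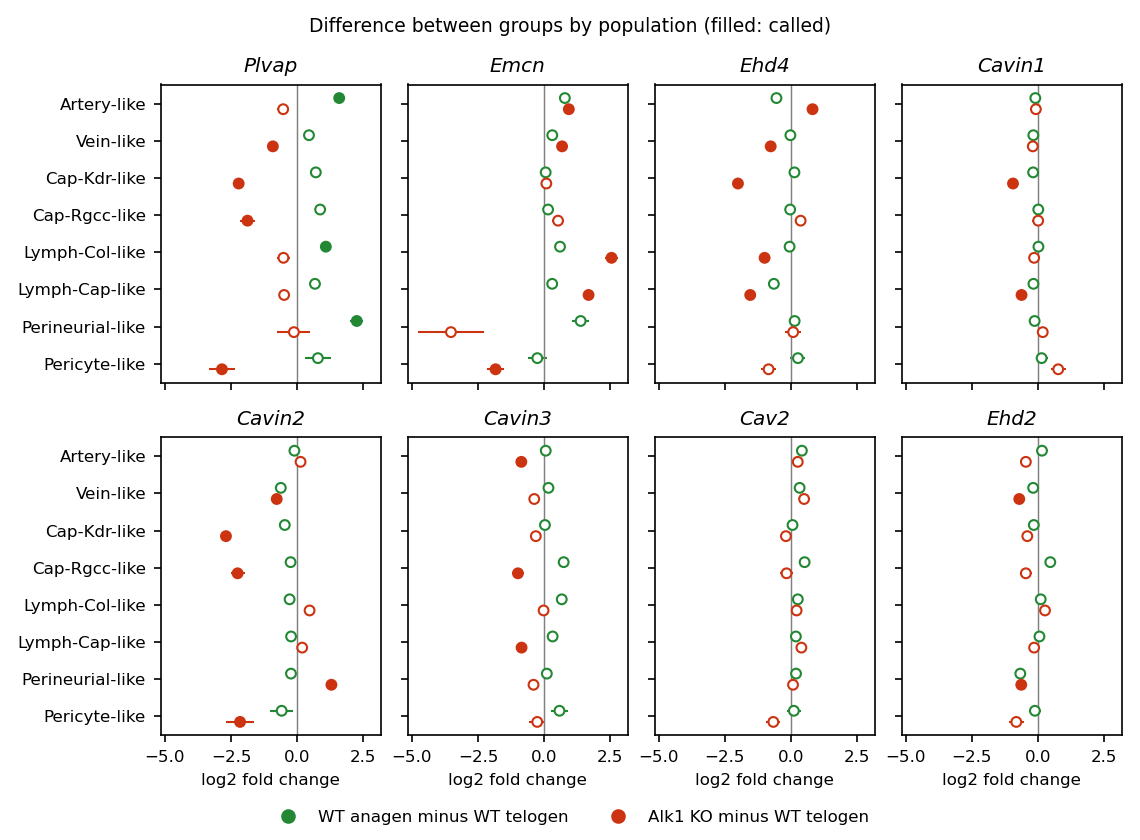
Log2 fold change (points) with its standard error (bars) of each of the 8 genes in 8 populations, for WT anagen minus WT telogen and for Alk1 KO minus WT telogen, with filled points for calls (adjusted p under 0.05 and fold over 1.3). Plvap, Cavin2 and Ehd4 reach about −2 or below in Cap-Kdr-like cells of Alk1 KO, Emcn reaches 2.55 in Lymph-Col-like cells, and the Cav2 points are all open.

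Plvap in Cap-Kdr-like cells was at 2119 and 1808 CPM in WT telogen and at 465 and 504 CPM in Alk1 KO (log2 fold change −2.21, SE 0.18, edgeR adjusted p 1.1e-05). In Cap-Rgcc-like cells it went from 1588 and 1514 to 553 and 285 CPM (−1.88, SE 0.28, edgeR adjusted p 0.00036) and in vein-like cells from 3091 and 2481 to 1470 and 1485 CPM (−0.92, SE 0.15, edgeR adjusted p 0.0011). These groups were far apart, and vein-like cells kept the most Plvap in Alk1 KO. In artery-like (236 and 169 against 171 and 111 CPM, adjusted p 0.12), Lymph-Cap-like (380 and 500 against 391 and 256 CPM, adjusted p 0.15) and Lymph-Col-like cells (117 and 111 against 111 and 56.9 CPM, adjusted p 0.15) edgeR called no change. The groups overlapped in the first 2 of these and were next to each other in the third. Without the first Alk1 KO library Plvap was called lower in these 3 as well (artery-like −0.88, Lymph-Cap-like −0.85, Lymph-Col-like −1.06, edgeR adjusted p 0.0013, 0.0012 and 9.8e-06), and without the first telogen library in Lymph-Cap-like cells (−0.66, edgeR adjusted p 0.028). Plvap was also called lower in Lymph-Cap-like cells when libraries were not corrected against each other before clustering (−1.02, edgeR adjusted p 0.0050). The share of cells with a Plvap UMI at 1500 UMIs per cell was 64% and 58.3% in Cap-Kdr-like cells of telogen against 35.4% and 26.2% in Alk1 KO, and in vein-like cells 96.1% and 96.9% against 82.4% and 76.6%.

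Cavin2 in Cap-Kdr-like cells was at 1145 and 1342 CPM in WT telogen and 226 and 215 CPM in Alk1 KO (−2.69, SE 0.19, edgeR adjusted p 5.2e-06), the lowest adjusted p of the 64. In Cap-Rgcc-like cells it went from 303 and 400 to 90.7 and 54.7 CPM (−2.25, SE 0.27, edgeR adjusted p 4.7e-05). In artery-like cells it was at 546 and 696 CPM and at 790 and 569 CPM, which overlap. Perineurial-like cells showed the opposite direction, with 502 and 580 CPM in telogen and 1338 and 1548 CPM in Alk1 KO (1.3, SE 0.20, edgeR adjusted p 0.00094). Both perineurial-like clusters shared in this: the cluster led by Hcn4, Cldn22 and Rspo1 went from 608 and 676 to 1494 and 1890 CPM, and that led by Slc6a13, Etv4 and Cspg4 from 395 and 441 to 1146 and 1118 CPM. In the same perineurial-like cells the summed level of 8 fibroblast markers went from 6182 and 6606 to 1081 and 865 CPM (of the 8, 0 were at 0 in telogen and 1 and 2 in Alk1 KO), and the part of these markers in the result was not tested. At 1500 UMIs per cell, 47.2% and 53.5% of perineurial-like cells held a Cavin2 UMI in telogen and 78.4% and 77.8% in Alk1 KO.

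Ehd4 in Cap-Kdr-like cells went from 425 and 553 to 143 and 135 CPM (−2.01, SE 0.20, edgeR adjusted p 3.8e-05). It fell in Lymph-Cap-like cells from 269 and 343 to 101 and 116 CPM (−1.55, SE 0.16, edgeR adjusted p 7.3e-05), in Lymph-Col-like cells from 189 and 283 to 107 and 139 CPM (−1.0, SE 0.21, edgeR adjusted p 0.0044) and in vein-like cells from 1213 and 1373 to 791 and 725 CPM (−0.77, SE 0.15, edgeR adjusted p 0.0038). The opposite was seen in artery-like cells, with 285 and 331 CPM in telogen and 553 and 530 CPM in Alk1 KO (0.81, SE 0.15, edgeR adjusted p 0.0029). All 3 artery-like clusters had higher values: 179 and 244 against 505 and 451 CPM in the Alpl cluster, 543 and 560 against 791 and 766 CPM in the Gkn3 cluster and 81.0 and 93.9 against 194 and 244 CPM in the Fez1 cluster. In Cap-Rgcc-like cells Ehd4 was at 408 and 394 CPM in telogen and 511 and 526 CPM in Alk1 KO, which did not pass the test (0.36, SE 0.21, edgeR adjusted p 0.25). In artery-like cells the sum of 9 artery markers went from 6458 and 7984 to 3987 and 3937 CPM and that of 6 Lymph-Col markers from 140 and 205 to 585 and 457 CPM. That of 8 vein markers went from 500 and 797 to 994 and 849 CPM and that of 9 Cap-Kdr markers from 2105.3 and 1792.9 to 2802.5 and 2404.7 CPM. The 8 Cap-Rgcc markers overlapped (3095 and 2161 against 2828 and 2437 CPM). No artery or Cap-Kdr marker was at 0, and at most 1 of the 6 Lymph-Col markers was. In each Alk1 KO library 2 of the 8 vein markers were at 0. The part of these markers in the result was not tested. The artery-like call on Ehd4 was lost without the first telogen library (0.70, edgeR adjusted p 0.051) and the Lymph-Col-like call without the second (−0.69, edgeR adjusted p 0.075).

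Emcn moved the other way. In Lymph-Col-like cells it was at 59.2 and 72.8 CPM in WT telogen and at 521 and 289 CPM in Alk1 KO (2.55, SE 0.25, edgeR adjusted p 2.2e-05). In Lymph-Cap-like cells it went from 297 and 296 to 1064 and 915 CPM (1.68, SE 0.16, edgeR adjusted p 4.6e-05), a level above that of Cap-Kdr-like cells of WT mice. It also rose in artery-like cells (124 and 104 to 227 and 210 CPM, 0.93, SE 0.15, edgeR adjusted p 0.0018) and vein-like cells (633 and 749 to 1034 and 1184 CPM, 0.68, SE 0.16, edgeR adjusted p 0.0096). In Cap-Kdr-like cells the groups overlapped, with 737 and 728 CPM in telogen and 700 and 1080 CPM in Alk1 KO. The vein-like call was lost without the first telogen library (0.57, edgeR adjusted p 0.11), and Cap-Rgcc-like cells gained a call without the first Alk1 KO library (0.72, edgeR adjusted p 0.012). Both lymphatic-like clusters within Lymph-Col-like cells held the rise, from 55.3 and 65.8 to 486 and 242 CPM in the cluster led by Fibin, Slc29a4 and Gdf10, and from 83.0 and 145 to 840 and 710 CPM in that led by Fxyd2, Neo1 and Irx5.

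The summed Cap-Kdr markers (9 genes) also rose in Alk1 KO in the lymphatic-like cells, from 292 and 290 to 764 and 581 CPM in Lymph-Col-like and from 634 and 885 to 1454 and 1631 CPM in Lymph-Cap-like cells, with at most 1 of the 9 at 0 in any of these libraries. They rose as well in artery-like (2105.3 and 1792.9 to 2802.5 and 2404.7 CPM) and vein-like cells (2227.5 and 1904.8 to 3452.1 and 3590.5 CPM). Their part in the Emcn differences was not tested. The sum of 7 Lymph-Cap markers in Lymph-Col-like cells went from 804 and 738 to 2051 and 1508 CPM. In lymphatic-like cells without a single UMI of a Cap-Kdr marker, an alternative chosen after seeing the data, Emcn was at 58.4 and 60.6 CPM in telogen and 492 and 158 CPM in Alk1 KO in Lymph-Col-like cells (5.46 times the telogen mean, from 45 to 158 cells per library). In Lymph-Cap-like cells of this kind it was at 148 and 212 CPM and at 732 and 858 CPM (4.41 times, from 25 to 42 cells per library). At 1500 UMIs per cell, 8.1% and 8.3% of Lymph-Col-like cells held an Emcn UMI in telogen and 38.2% and 26.3% in Alk1 KO, with exact 95% binomial intervals of 5.43% to 11.5%, 5.81% to 11.5%, 32.4% to 44.3% and 21.5% to 31.5% that cover counting error only. Of immune-like cells, 0.60% and 0.23% held one in telogen, and 0 of 59 (an exact upper bound of 6.06%) and 2.54% in Alk1 KO. The median depth of the Lymph-Col-like cells was 3727 to 4300 UMIs and that of the immune-like cells 6542 to 13444 UMIs in these libraries. Unthinned, the shares were 21.2% and 22.5% against 57.3% and 40.1% in Lymph-Col-like cells.

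**Figure D4:**
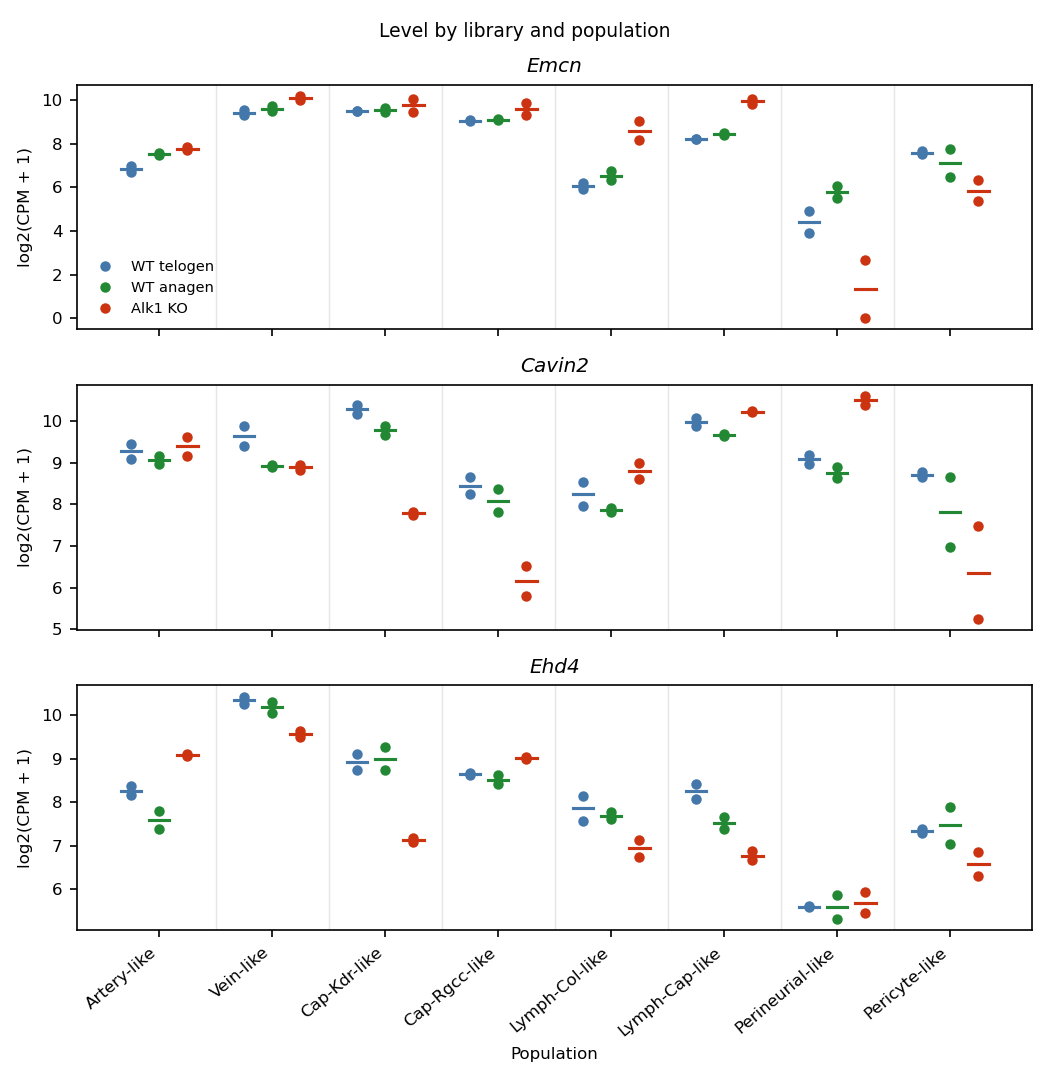
Level of Emcn, Cavin2 and Ehd4 as log2(CPM + 1) in each library (points) with the mean of each group (bars) in 8 populations. In Alk1 KO the Emcn points rise in both lymphatic-like populations, the Cavin2 points drop in both capillary-like populations and rise in perineurial-like cells, and the Ehd4 points rise in artery-like cells and drop in Cap-Kdr-like and lymphatic-like cells.

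Besides Cavin2, the coat and neck genes Cavin1, Cavin3 and Ehd2 had calls downward at log2 fold changes of −0.99 to −0.62. Cavin3 fell in artery-like cells from 513 and 501 to 288 and 271 CPM (−0.86, SE 0.14, edgeR adjusted p 0.0017), in Lymph-Cap-like cells from 407 and 496 to 236 and 283 CPM (−0.85, SE 0.16, edgeR adjusted p 0.0041) and in Cap-Rgcc-like cells from 343 and 466 to 180 and 232 CPM (−0.99, SE 0.23, edgeR adjusted p 0.0066), a call lost without the second telogen library (−0.75, edgeR adjusted p 0.20). Cavin1 fell in Cap-Kdr-like cells from 630 and 694 to 411 and 375 CPM (−0.95, SE 0.18, edgeR adjusted p 0.0020). In Lymph-Cap-like cells it fell from 451 and 443 to 270 and 335 CPM (−0.62, SE 0.16, edgeR adjusted p 0.020), a call lost without the first telogen (−0.59, adjusted p 0.066) or the first Alk1 KO library (−0.49, adjusted p 0.11). Cavin2 in vein-like cells went from 679 and 943 to 494 and 455 CPM (−0.77, SE 0.18, edgeR adjusted p 0.0096), which was lost without the second telogen (−0.53, adjusted p 0.13) or the second Alk1 KO library (−0.70, adjusted p 0.056). Ehd2 fell in vein-like cells from 238 and 242 to 117 and 180 CPM (−0.71, SE 0.20, edgeR adjusted p 0.024), lost without the first Alk1 KO library (−0.43, adjusted p 0.17). In perineurial-like cells it fell from 249 and 278 to 174 and 194 CPM (−0.64, SE 0.21, edgeR adjusted p 0.045), a call lost in 9 of 16 alternatives, those without either telogen library among them (−0.76 and −0.56, edgeR adjusted p 0.13 and 0.34).

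Pericyte-like cells showed lower Plvap (484 and 363 against 93.2 and 23.2 CPM, −2.84, SE 0.50, edgeR adjusted p 0.021), Cavin2 (403 and 435 against 37.3 and 176 CPM, −2.16, SE 0.52, adjusted p 0.049) and Emcn (200 and 185 against 40.4 and 78.9 CPM, −1.84, SE 0.34, adjusted p 0.024). In the same cells the sum of 8 endothelial markers went from 3140 and 2486 to 680 and 1698 CPM and that of the 9 Cap-Kdr markers from 3631 and 3258 to 671 and 1494 CPM, with 2 and 1 of the 9 at 0 in Alk1 KO. In pericyte-like cells without an endothelial marker UMI, in an alternative chosen after seeing the data, Plvap had 0 or 1 UMI in each of the 6 libraries, over 3 to 24 cells. Without the first Alk1 KO library Plvap had −4.37 and Cavin2 −1.43, and without the second Cavin2 had −3.56, all still calls. The Cavin2 call was lost in 6 of 16 alternatives (edgeR adjusted p up to 0.095) and those on Plvap (up to 0.11) and Emcn (up to 0.070) in 2 each, none of which left out a library.

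The count of members called was set beside the share of all genes called in each population. In Cap-Kdr-like cells 4 of 8 members were calls, all lower, where 34.9% of all genes were called and members had a median log2 fold change of −0.68 against 0.00 over all genes. Vein-like cells had 5 calls (21.2% of all genes), pericyte-like 3 (6.46%), Lymph-Cap-like 4 (14.9%), artery-like 3 (18%), Cap-Rgcc-like 3 (18.8%), Lymph-Col-like 2 (18.4%) and perineurial-like 2 (21.3%). In the last 2 of these the share of members called was near that of all genes. In perineurial-like cells Emcn had 0 and 1 UMI in the 2 Alk1 KO libraries, at 0 and 5.38 CPM against 13.9 and 29.4 CPM in telogen, and was not a call (edgeR adjusted p 0.065). Cavin2 in Lymph-Col-like cells, at 247 and 373 CPM in telogen and 508 and 390 CPM in Alk1 KO, became a call without the second telogen (0.79) or the second Alk1 KO library (0.66). Calls were also gained for Cav2 in Lymph-Cap-like cells (0.53) and Ehd2 in pericyte-like cells (−1.19) without the first Alk1 KO library, and for Cavin3 in perineurial-like (−0.50), Ehd4 in pericyte-like (−1.12) and Cavin1 in pericyte-like cells (1.0) without the second.

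The Alk1 KO difference was tested between cell types in the same way as the stage difference. For artery-like against capillary-like cells it was called for 4 of the 8 members, where 8.5% of all genes were called, and for blood endothelial-like against lymphatic-like cells for 6 of 8, where 20% were. The difference of Cavin2 was higher in artery-like than in capillary-like cells by 2.71 (SE 0.17, edgeR adjusted p 6.3e-14), that of Plvap by 1.53 (SE 0.18, edgeR adjusted p 1.2e-07) and that of Ehd4 by 1.37 (SE 0.17, edgeR adjusted p 3.0e-07). Within the capillary-like sum Ehd4 had −2.01 in Cap-Kdr-like cells and 0.36, not a call, in Cap-Rgcc-like cells. That sum held 131 and 161 Cap-Kdr-like beside 131 and 126 Cap-Rgcc-like cells in telogen. Its Alk1 KO part held 193 and 225 beside 111 and 111. The part of this capillary mix in the artery against capillary values was not tested. The blood minus lymphatic level of Emcn, 1.78 and 1.91 in the telogen libraries, was −0.38 and 0.16 in Alk1 KO. That of Cavin2 went from 0.49 and 0.61 to −1.03 and −1.26, and that of Ehd4 from 1.51 and 1.21 to 2.42 and 1.99. The lymphatic-like sum held 184 and 164 Lymph-Cap-like beside 359 and 409 Lymph-Col-like cells in telogen. In Alk1 KO it held 407 and 508 beside 286 and 334. The part of this mix in the blood against lymphatic values was not tested.

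Most of the capillary values and the make-up of the Lymph-Col-like population rest on the correction between libraries before clustering. Without it 18 and 14 Alk1 KO cells were left in the Cap-Kdr-like and 27 and 14 in the Cap-Rgcc-like population, against 193 and 225 and 111 and 111 with it. Plvap then had a log2 fold change of −0.84 (edgeR adjusted p 0.11) in Cap-Kdr-like and −1.25 (adjusted p 0.21) in Cap-Rgcc-like cells, Ehd4 −1.11 (adjusted p 0.076) in Cap-Kdr-like cells and Cavin3 −1.08 (adjusted p 0.16) in Cap-Rgcc-like cells. The Lymph-Col-like population then held 12 and 29 Alk1 KO cells against 286 and 334, while Lymph-Cap-like cells were 697 and 837 against 407 and 508 and unnamed clusters 536 and 582 against 79 and 87. In these Lymph-Col-like cells Emcn had 1.88 (edgeR adjusted p 2.2e-05), still a call, and Ehd4 −0.68 (adjusted p 0.32). The artery against capillary difference of Plvap was 0.43 (edgeR adjusted p 0.53). Calls were gained without the correction for Plvap in Lymph-Cap-like cells (−1.02, edgeR adjusted p 0.0050), Ehd2 in Cap-Kdr-like cells (−1.52, adjusted p 0.038) and Cavin3 in vein-like cells (−0.77, adjusted p 0.014). The calls on Cavin2 in both capillary-like populations and on Cavin1 in Cap-Kdr-like cells held in all 16 alternatives, this one included.

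3 lists of 12 related genes each, also chosen with earlier results known, gave the surroundings of the 8. At anagen edgeR called 0 of 10 tested partners of the caveolar coat and neck (6 of 53 tests at an unadjusted p under 0.05, 0 calls by DESeq2, which gave no adjusted p for 25) and 0 of 12 flotillin and clathrin coat genes (16 of 96 tests, 0 calls by DESeq2, which gave no adjusted p for 35). Ehd1, Nos3 and Flna, the partners with the highest blood endothelial-like level, ranged from −0.38 to 0.90 over the populations, and Clta, Cltb and Cltc from −0.33 to 0.45. Of 11 tested sialomucins and surface glycoproteins, Cd34 was called, in perineurial-like cells (80.2 and 71.7 CPM in telogen, 147 and 142 CPM in anagen, 1.01, edgeR adjusted p 0.031), 1 of 63 tests (1.59%). In these cells 8 general endothelial markers were also higher at anagen, with sums of 399 and 470 CPM in telogen and 605 and 660 CPM in anagen. The part of these markers in the Cd34 difference was not tested.

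In Alk1 KO the partner list had 9 calls up and 6 down in 48 tests (31.2%, where 19.1% of all gene tests were calls), 15 in all against 6 by DESeq2. Pacsin3, an F-BAR protein of the caveolar neck, rose in all 4 populations in which it was tested, from 17.5 and 9.03 to 63.2 and 92.9 CPM in Lymph-Col-like cells (2.49, SE 0.30, edgeR adjusted p 0.00013), and by 1.23 in Lymph-Cap-like, 2.37 in perineurial-like and 1.94 in pericyte-like cells. Ehd1, a paralogue of Ehd2 and Ehd4, fell in 5 populations, most in Cap-Rgcc-like cells (111 and 112 to 56.5 and 48.3 CPM, −1.09). Dnm2, the dynamin that pinches vesicles off, rose in artery-like and perineurial-like cells, Nos3, the endothelial nitric oxide synthase, in Cap-Kdr-like and Lymph-Cap-like cells and Pacsin2 in pericyte-like cells, and Flna fell in artery-like cells.

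The flotillin and clathrin list had 7 calls up and 16 down in 96 tests (24%), a share near the 19.1% of all gene tests. Flot2, of the flotillin membrane domains, rose in 5 populations, in Cap-Kdr-like cells from 24.0 and 19.5 to 74.7 and 82.4 CPM (1.66, SE 0.29, edgeR adjusted p 0.0012), and Flot1 rose in both lymphatic-like populations. Dab2, a clathrin adaptor, fell in 6 populations, in Cap-Rgcc-like cells from 220 and 285 to 39.4 and 19.3 CPM (−3.06, SE 0.30). The adaptor subunit Ap2s1 fell in 5, Ap2m1 and Clta in 2 each and Cltb in Cap-Kdr-like cells. The sialomucin and glycoprotein list had 2 calls up and 20 down in 58 tests (37.9%). Podxl, which encodes the sialomucin podocalyxin, fell in 7 of 8 populations, in Cap-Kdr-like cells from 381 and 418 to 99.6 and 73.9 CPM (−2.40, SE 0.21, edgeR adjusted p 1.6e-05). Cd34 fell in 6 of 7, from 758 and 808 to 447 and 377 CPM in Cap-Kdr-like cells (−1.12), while Sdc3 rose in Cap-Kdr-like and perineurial-like cells. Sdc1, Sdc4 and Podxl2 fell in 2 populations each and Sdc2 in 1.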

How the data were processed

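Count values are UMI counts per gene and cell as deposited by the authors, who aligned 10x Chromium 3′ v3 reads to mm10 with Cell Ranger 6.0.1 and analysed them with Seurat 4.0, per the labels and the study's methods. Cells with 200 to 5000 genes and under 10% mitochondrial UMIs were kept. Variable genes (3000, without the 8 genes, their related lists and Acvrl1), 30 principal components, a harmony-type correction between libraries and Leiden clustering at 0.6 were run in Python 3.11.15 with scanpy 1.11.5. A cluster was named where at least 3 markers were at least 2-fold higher and in 25% of its cells. Doublets were kept in the main analysis and removed in an alternative. UMIs were summed per library and population (at least 5 cells per library) and tested in R 4.3.3 with edgeR 4.0.16 (filterByExpr, TMM, glmQLFit, glmQLFTest, Benjamini-Hochberg over all genes), each contrast and population in a fit of its own. DESeq2 1.42.0 was an alternative. With 2 mice per group, p-values measure the spread between single libraries, and nothing in the labels gives a litter or batch. The scripts were tested on simulated counts.

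The members, lists, markers and tests were chosen with earlier results of these data known. Genes were named as members, as the related genes called or highest in blood endothelial-like cells, or as those nearest in pattern; 1 gene named by the last rule is not reported here. The labels give no exons for the Alk1 deletion. Positions came from GENCODE vM21 and promoter windows from RefSeq, which held 6 of the 8 members and no entry for Plvap or Cavin3.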

Additional observations from a re-analysis of the deposited data

Results flagged for a closer look

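The Alk1 KO difference of 6 genes was not the same in blood endothelial-like and lymphatic-like cells, each summed over its populations. The test was of a term for the difference of differences with the library as a block (edgeR, n = 2 libraries per group). Of all genes, 20% were called in it. Lymph-Cap-like cells made up 184 of 543 and 164 of 573 lymphatic-like cells in telogen. In Alk1 KO they made up 407 of 693 and 508 of 842. Plvap had a log2 fold change of −0.52 in Lymph-Col-like and −0.49 in Lymph-Cap-like cells. Its mean level in their sum went from 206 to 233 CPM. The part of this mix in the differences was not tested. The blood difference lay below the lymphatic one for Emcn by a log2 value of −1.94 (SE 0.17, adjusted p 3.3e-07), for Cavin2 by −1.67 (SE 0.15, adjusted p 3.9e-07), for Plvap by −1.37 (SE 0.16, adjusted p 8.1e-06), for Ehd2 by −0.83 (SE 0.16, adjusted p 0.00092) and for Cavin3 by −0.50 (SE 0.15, adjusted p 0.023). It lay above for Ehd4, by 0.87 (SE 0.17, adjusted p 0.0016). The Cavin3 call was lost in 5 of 13 alternatives. These were DESeq2, cells under 5% mitochondrial UMIs, and fits without either telogen library or without the second Alk1 KO library.

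The difference also varied between artery-like and capillary-like cells, where 8.5% of all genes were called. It was higher in artery-like cells for Cavin2 by 2.71 (SE 0.17, edgeR adjusted p 6.3e-14), for Plvap by 1.53 (SE 0.18, adjusted p 1.2e-07), for Ehd4 by 1.37 (SE 0.17, adjusted p 3.0e-07) and for Emcn by 0.68 (SE 0.20, adjusted p 0.023). Within the capillary-like sum Ehd4 had −2.01 in Cap-Kdr-like and 0.36 in Cap-Rgcc-like cells. The part of their mix was not tested. The Plvap call was lost without the correction between libraries (0.43, edgeR adjusted p 0.53). The Emcn call was lost in 6 of 13 alternatives. Among them were DESeq2, at least 500 genes per cell and no TMM scaling (0.57, edgeR adjusted p 0.097). The others left out either telogen library or the first Alk1 KO library (0.35 without the last). The groups also differ in age, time after tamoxifen, strain and the Krt14-H2BGFP allele, which cannot be told apart from the deletion.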

How the results depend on the processing

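No call reversed its direction. Over 16 alternatives for calls within populations and 13 for differences between them, both tested stage calls were lost in at least 2, and 12 of 26 Alk1 KO calls and 7 of 10 calls on differences between cell types were kept in all. The stage calls depended most on the setting. Against 3 higher (artery-like Plvap included) and 0 lower, DESeq2 gave 9 and 2, no filter on low counts 11 and 3, the replicate block 5 and 2, and a crossed pairing chosen after seeing the data 7 and 1. No correction between libraries gave 5 higher, and leaving out 1 library also changed which differences were called. The share of all genes called under each of these settings is not given here. Nothing about the members against other genes is therefore read from these counts. Same-numbered libraries had deviations correlated at −0.11 to 0.29 (telogen and anagen) and −0.17 to 0.16 (telogen and Alk1 KO), so with 2 pairs they share only a number, and the replicate block lost the Alk1 KO calls on Ehd2 in perineurial-like cells and on Cavin2 and Emcn in pericyte-like cells. Ehd4 in blood minus lymphatic cells was 1.02 with under 5% mitochondrial UMIs, against 1.40. The share of blood endothelial-like cells with a Plvap UMI was 67.9% at 1500 UMIs, 78.3% at 3000 and 79.1% unthinned, and of lymphatic-like cells 24.5%, 37.3% and 42.7%. For Emcn these were 46.5%, 65.7% and 72.9%, and 17.0%, 28.9% and 34.2%. Cells below the thinned depth were left out, so these shares are over different sets of cells. Without TMM scaling the median of all genes was 0.20 in Cap-Kdr-like cells of Alk1 KO, where calls over all genes split into 1742 higher and 1082 lower against 1238 and 1428, and at anagen it was −0.11 in artery-like and −0.14 in vein-like and Lymph-Col-like cells. The cause of these changes was not tested. Low levels near those of immune-like cells are uncertain, and what limits them was not tested.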
